A study of Mus musculus with 6 samples.

Results

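Respiratory complex I is made from nuclear genes whose symbols begin with Nduf and from a few genes of the mitochondrial genome. All 240 transcripts with such a symbol, of 51 genes, were taken from a table of 141196 transcripts of 52962 genes measured in mouse cerebral cortex. The genes comprised 7 core subunits, 30 accessory subunits, 8 assembly factors (Ndufaf1 to Ndufaf8) and 6 others. Of these others, Ndufa4 and Ndufa4l2 carry the name without being complex I subunits, and Ndufa11b, Ndufab1-ps, Ndufb4c and Ndufs6b are copies or pseudogenes with at most 33 reads. Of the 240 transcripts, 164 had at least 1 read with a poly(A) tail estimate. Tail length was compared for the 90 transcripts, of 47 genes, with at least 10 such reads in each sample, and these held 99.0% of the tail reads of the whole set. Poly(A) RNA was sequenced directly, as RNA, on a nanopore PromethION instrument from 3 Fmr1 knockout (KO) and 3 wild type (WT) samples of C57BL/6 cortex. The labels give no allele, age or sex and name no animals, so p-values measure only the spread between these samples, which may be technical. Fmr1 encodes FMRP, an RNA-binding protein of neurons, and the study asked how tail lengths differ without it.

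Complex I takes electrons from NADH, passes them along iron-sulfur clusters to ubiquinone and pumps protons across the inner mitochondrial membrane. Its core subunits carry the catalytic groups, accessory subunits surround and stabilise them, and assembly factors help to build the complex without staying in it. The poly(A) tail is added to the 3′ end of an mRNA after cleavage downstream of a signal, most often AATAAA or ATTAAA, and is shortened in the cytoplasm. The mRNA of Ndufv2, a core subunit, has been reported as a target of the cytoplasmic polyadenylation factor CPEB1 in mouse neurons.

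The annotated 3′ ends of 12 transcripts are shown because their genes have the longest, the shortest or the most read tails, or a pair of transcripts with unlike tails. Each line gives 30 bases of the RNA, written as DNA in the sense of the transcript, 5′ to 3′, from GENCODE release 21 on mm10, and capitals mark each AATAAA or ATTAAA. The 30 bases reach the annotated end, except for Ndufs1, where the last 10 bases are left out so that its signal is included.
Ndufv2, 1697 nt transcript: ttgtatgAATAAAacattaccttcaactca
Ndufv2, 927 nt transcript: tcactggacaAATAAAatatgaacttccct
Ndufa4, 610 nt transcript: atataagaactaaagtattaggatgtaaag
Ndufa4, 409 nt transcript: tacactgatgAATAAAtctctgaaacttga
Ndufs7, 983 nt transcript: atcccttgtgAATAAAcccatcctgatcca
Ndufs7, 758 nt transcript: aatcccttgtgAATAAAcccatcctgatcc
Ndufs1, 2661 nt transcript: gtttAATAAAactatcattttctctttcat
Ndufaf4, 3632 nt transcript: tcagtccccAATAAActgcactgcaatcct
Ndufaf7, 1749 nt transcript: ttgttttcaacccagtaaagtgatttattg
Ndufa5, 875 nt transcript: taaatgtgcaATTAAAtgctctgtgatgct
Ndufa13, 1251 nt transcript: acgcacatAATAAAgagtggtcaAATAAAa
Ndufb9, 704 nt transcript: acacttgccctAATAAAaggaactagacac
The ends of both Ndufv2 transcripts lie on the minus strand of chromosome 17, at 66078638 to 66078667 for the longer transcript and 66079441 to 66079470 for the shorter one. Both Ndufv2 ends carry AATAAA. The Ndufs7 ends, on the plus strand of chromosome 10, share all but their last base. No signal of either kind lies in the shown bases of the longer Ndufa4 transcript or of Ndufaf7.

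The libraries held 3540416, 2404074 and 3443862 tail reads in KO samples and 3214196, 3621378 and 3849077 in WT samples. All reads, recovered from the deposited RPM, numbered 4710220, 3212071 and 4452861 in KO samples and 4218911, 4483322 and 4529118 in WT samples. The share of reads with a tail estimate differed between libraries and was highest in WT replicate 3. Its part in the results was not tested. Abundance is given as tail reads of a gene per 1000000 after TMM scaling (CPM). Fmr1, the targeted gene, had 10.9, 11.8 and 8.22 CPM in KO samples, against 41.7, 45.1 and 46.4 CPM in WT samples (edgeR log2 -2.13 ± 0.15, SE; adjusted p = 1.22e-10). Summed markers of excitatory neurons ran from 4519 to 4766 CPM in KO samples and from 3804 to 4314 CPM in WT samples, and 1 of the 6 (Nrgn) was called higher. Nrgn alone had 2796 to 3014 CPM in KO samples and 2360 to 2641 CPM in WT samples. Of the 6 markers 5 were higher in KO, and Tbr1 was not (edgeR log2 -0.0066). The summed markers of astrocytes, oligodendrocytes, microglia and vessels overlapped between genotypes, with 0 called. Of the 5 choroid plexus markers, 2 were measurable, with sums of 10.9 to 23.6 CPM in KO samples and 31.4 to 825 CPM in WT samples. One of them, Ttr, was called lower at 10.3 to 22.8 CPM in KO samples and 422, 28.4 and 821 CPM in WT samples (edgeR log2 -4.69 ± 0.64, SE; adjusted p = 6.45e-05), and WT replicates 1 and 3 stood apart. The inhibitory neuron marker Sst was called higher (edgeR log2 0.25 ± 0.06, SE; adjusted p = 0.0290), as the only one of 5 such markers with a higher mean in KO.

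In both genotypes the assembly factor mRNAs had a longer median tail than all subunit mRNAs pooled, most of which encode accessory subunits, but not a longer one than the core subunits in WT. One transcript stood for each gene, the one with most tail reads. The median over the 8 assembly factors was 120.3, 113 and 128 nt in KO samples and 119, 118 and 120.3 nt in WT samples. The median over the 37 subunits was 105, 104 and 108 nt in KO samples and 105, 106 and 108 nt in WT samples. In every sample the assembly factors thus lay above the subunits, by 15.4, 9.34 and 19.9 nt in KO samples and by 13.7, 12.002 and 12.5 nt in WT samples. The mean gap was 13.8 ± 3.59 nt (SD, n = 6 samples). Of the 8 assembly factors, 7 had a WT tail above the subunit median. Genes are not replicates and the members were chosen with results known, so no test was run on this gap.

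Core subunits also had longer tails than accessory subunits. The core median was 116 ± 3.90 nt in KO samples and 121 ± 0.63 nt in WT samples (SD, n = 3 each). The accessory median was 103 ± 2.05 nt in KO samples and 104 ± 1.399 nt in WT samples. All 7 core subunits had a WT tail above the accessory median. One core gene, Ndufs3, is listed under 2 gene identifiers of equal transcript length, and the lower core median in KO came from the choice between them. With the other Ndufs3 record the core median was 119.8 ± 0.33 nt in KO samples and 120.3 ± 0.53 nt in WT samples. The assembly factor median was 120.3 ± 7.41 nt in KO samples and 119 ± 1.07 nt in WT samples. On these means of 3 samples it lay above the core median in KO and below it in WT with either record. With the other Ndufs3 record single samples went the other way. KO replicate 2 had 113 nt for assembly factors and 120.1 nt for core subunits, and WT replicate 3 had 120.3 and 120.01 nt. The matrix arm, where electrons enter, and the membrane arm, which pumps protons, had medians of 109 and 103 nt in KO samples and 110.1 and 103 nt in WT samples. All 7 core subunits of the set belong to the matrix arm. The accessory subunits of the matrix arm alone had a median of 104 nt in KO samples and 107 nt in WT samples.

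**Figure D1:**
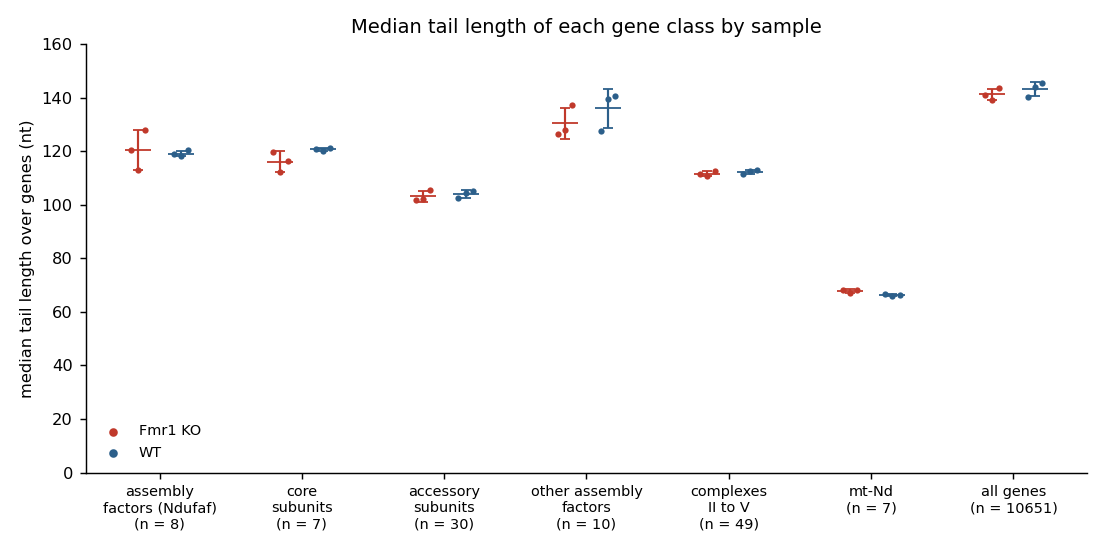
Median tail length over the genes of a class in nt (y axis), by class (x axis, with the number of genes), in the 3 Fmr1 KO samples and the 3 WT samples. Points are samples, horizontal marks are means and bars are SDs. The Ndufaf assembly factors and the core subunits lie near 120 nt in WT, the accessory subunits near 104 nt and the mitochondrially encoded mt-Nd RNAs near 66 nt.

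Tails of complex I mRNAs were short for this tissue. The median over 10651 genes was 141 ± 2.11 nt in KO samples and 143 ± 2.66 nt in WT samples, and 36 of 37 subunits and 7 of 8 assembly factors lay under it in WT. Nuclear subunits of complexes II to V, 49 genes, had a median of 112 nt in each genotype. Among 185 other genes with transcript lengths and read numbers in the ranges of the subunits (their 10th to 90th percentiles, 527 to 1697 nt), the WT median was 120.2 nt with quartiles of 111 and 128 nt. The subunit median of 106 nt lay under the lower quartile of those genes. Lengths inside that range were not matched to those of the subunits, whose median length was 861 nt. The part of length in this difference was not tested.

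Among assembly factors the longest tails were those of Ndufaf7 in WT and Ndufaf4 in KO. Ndufaf7 is a mitochondrial methyltransferase needed to build complex I, and its tail was 146, 151 and 151 nt in KO samples and 152, 158 and 141 nt in WT samples. Ndufaf4, which acts with Ndufaf3 early in building the matrix arm, had 151, 157 and 154 nt in KO samples and 138, 144 and 147 nt in WT samples. The KO samples of Ndufaf4 all lay above the WT samples, and those of Ndufaf7 lay among them. With limma over the whole table the Ndufaf4 difference was not called (log2 0.11 ± 0.05, SE; adjusted p = 0.84).

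Ndufaf5, which hydroxylates Ndufs7, had 110.3, 122 and 133 nt in KO samples and 121, 124 and 126 nt in WT samples. Its partner Ndufaf8 was the shortest of the assembly factors, at 97.8, 93.2 and 108 nt in KO samples and 96.4, 104 and 107 nt in WT samples. The KO samples of both spread more widely than the WT samples, and the groups overlapped. Ndufaf6 had 131, 108 and 128 nt in KO samples and 122, 119 and 124 nt in WT samples. Ndufaf3 had 112, 116 and 119.9 nt in KO samples and 117, 117 and 113 nt in WT samples. Neither of these separated the genotypes. Ndufaf2, which is related to the accessory subunit Ndufa12, had 104, 105 and 107 nt in KO samples and 109.8, 111 and 116 nt in WT samples, with every KO sample below every WT sample (limma adjusted p = 0.84). Ndufaf1, a factor for the membrane arm, had 129, 109 and 127 nt in KO samples and 114, 109 and 97.8 nt in WT samples for its most read transcript, a 1478 nt one with 234 reads. A 1308 nt transcript of Ndufaf1 with 169 reads and the same annotated end lay the other way, at 109.9, 117 and 113 nt in KO samples and 140.1, 119 and 125 nt in WT samples, with every KO sample below every WT sample. Neither Ndufaf1 difference passed (limma adjusted p = 0.84 for the 1478 nt and 0.82 for the 1308 nt transcript). Assembly factor tails rest on few reads, a median of 513 over the 6 samples for each representative transcript against 4378 for the subunits.

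Among core subunits, Ndufs1 had the longest tail. Ndufs1 is the largest subunit of the matrix arm and binds iron-sulfur clusters, and its tail was 141, 148 and 136 nt in KO samples and 147, 149 and 147 nt in WT samples. The groups overlapped. Ndufs7, which holds the last iron-sulfur cluster before ubiquinone, had 119.8, 121 and 119 nt in KO samples and 121, 119.96 and 121 nt in WT samples. Ndufv2, an iron-sulfur subunit of the NADH-oxidising module, had 108, 106 and 112 nt in KO samples and 111, 111 and 114 nt in WT samples on its most read transcript. Ndufv2 was thus among the shorter core subunits, and its groups overlapped.

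The pair of Ndufs3 records differed in tail from sample to sample. Their transcripts were both 1046 nt long and had 2119 and 2091 tail reads. One record had 125, 112 and 116 nt in KO samples and 122, 121 and 125 nt in WT samples, and the other 122, 120.1 and 123 nt in KO samples and 121, 121 and 120.0 nt in WT samples. In single samples the records differed by 0.13 to 8.06 nt, with a mean difference of 1.07 ± 5.15 nt (SD, n = 6 samples).

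The shortest tails belonged to accessory subunits. Ndufa5, of the matrix arm, had 85.2, 82.5 and 89.5 nt in KO samples and 80.8, 85.3 and 84.6 nt in WT samples. Ndufa13, also known as GRIM-19, had 86.4, 83.1 and 88.2 nt in KO samples and 82.7, 85.7 and 86.0 nt in WT samples. Ndufa2, which has a thioredoxin-like fold, had 88.6, 83.6 and 89.1 nt in KO samples and 87.2, 86.8 and 89.7 nt in WT samples. The groups overlapped for all of these. Ndufb7, a membrane arm subunit, had 89.7, 83.7 and 85.3 nt in KO samples and 83.5, 90.3 and 90.7 nt in WT samples. The other well-read accessory genes, Ndufb9, Ndufb8 and Ndufb4 of the membrane arm, averaged 96.2 ± 1.69, 95.4 ± 2.05 and 103 ± 2.34 nt in KO samples and 96.6 ± 1.93, 95.8 ± 2.61 and 102.5 ± 1.77 nt in WT samples (SD, n = 3 each). The whole range of accessory subunits in WT ran from 83.6 nt for Ndufa5 to 125 nt for Ndufa10.

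**Figure D2:**
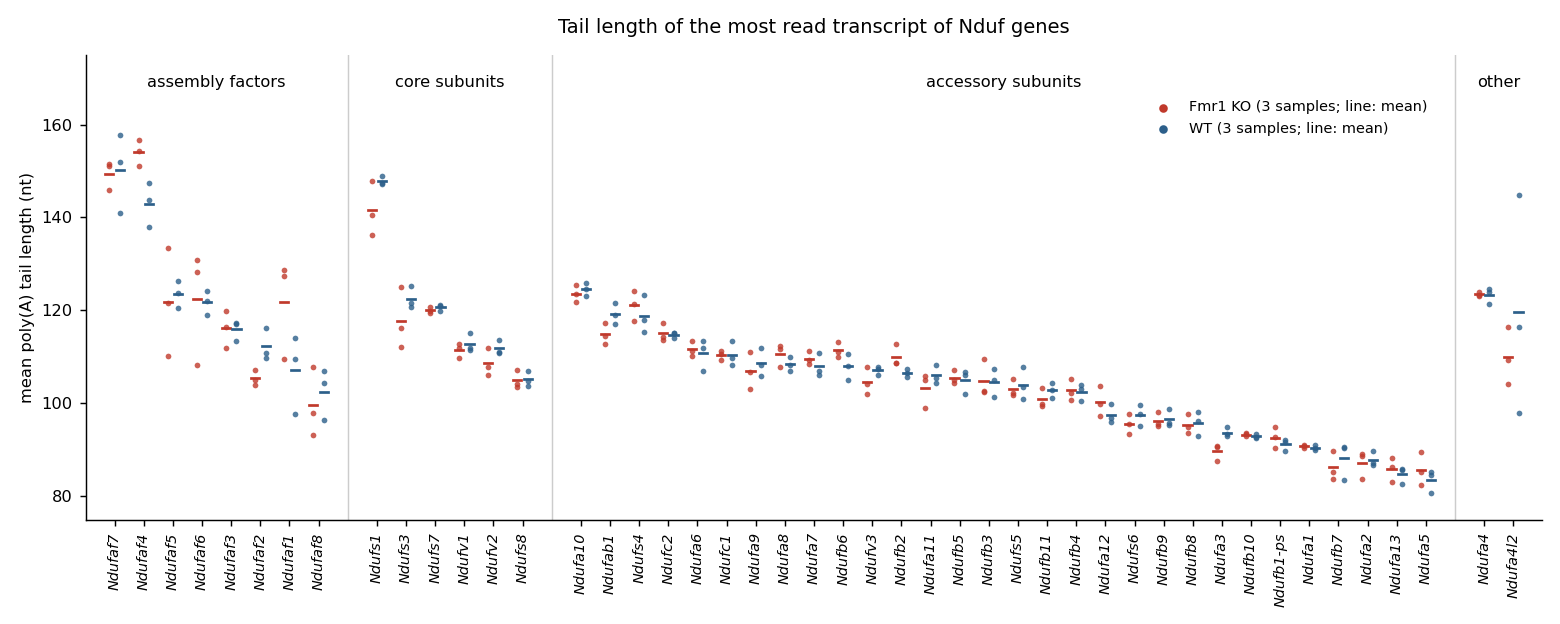
Mean tail length in nt (y axis, starting above 0) of the most read transcript of 46 of the 47 Nduf genes (x axis), by class and in order of the WT mean. Points are the 3 Fmr1 KO samples (left of each pair) and the 3 WT samples, and lines are means. Ndufaf7, Ndufs1 and Ndufaf4 have the longest tails in WT, and Ndufa5 and Ndufa13 the shortest.

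Longer transcripts of the set had longer tails. Across the 47 genes, Spearman's rho between transcript length and tail was 0.467 to 0.594 in the 6 samples, and across all 10651 genes it was 0.510 to 0.540. The length medians were 1322 nt for assembly factors, 1623 nt for core subunits and 748 nt for accessory subunits, in the same direction as the tail medians of core and accessory genes. All subunits pooled had a length median of 861 nt, under that of the assembly factors, as in the tail medians. Between abundance in RPM and tail, rho was -0.452 to -0.336 across the 47 genes and -0.312 to -0.288 across all genes. These values describe genes of the same 6 libraries, and the part of length or abundance in the difference between classes was not tested.

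Tails in KO cortex lay close to those in WT cortex. On the representative transcripts the mean tail differed between KO and WT by a median of 1.68 nt in absolute size, and 42 of 47 genes lay within 5 nt. The limma test on log2(mean nt + 1) called 0 of the 90 Nduf transcripts, where it called 0 of 16168 over the whole table (0%). At an unadjusted p under 0.05 there were 6 of 90, against a background of 5.84%. The 90 split into 45 longer and 45 shorter in KO, whereas 58.8% of all transcripts were shorter. With each sample centred on its median tail, 55 of the 90 were longer, against 52.7% of all transcripts. By class, 11 of 19 core, 25 of 54 accessory and 8 of 12 assembly factor transcripts were shorter. The KO samples lay wholly above the WT samples for 5 of the 90 (background 3.41%) and wholly below for 7 (background 7.53%). On the representative transcripts 4 of 47 genes had the groups apart, where 10.9% of all 16168 transcripts were apart in either direction. The 4 were Ndufaf4 and Ndufb2 with longer tails in KO, and Ndufaf2 and Ndufa3 with shorter ones.

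The smallest p among the members belonged to the 927 nt transcript of Ndufv2 (chromosome 17, 66079441 to 66101495, minus strand). Its tail was 117, 107 and 116 nt in KO samples and 140.2, 138 and 136 nt in WT samples. Every KO sample lay below every WT sample (limma log2 -0.28 ± 0.05, SE; unadjusted p = 0.000742, adjusted p = 0.70). The difference did not pass, and each value rests on 14 to 36 reads. The 1697 nt transcript, with 6216 of the 6380 tail reads of Ndufv2, averaged 109 ± 2.995 nt in KO samples and 112 ± 1.65 nt in WT samples.

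The next 4 transcripts by p were also minor ones of their genes, and none passed. A 382 nt transcript of Ndufa6, a partner of the acyl carrier protein Ndufab1, had 112, 102 and 88.0 nt in KO samples and 127, 134 and 130.0 nt in WT samples (limma adjusted p = 0.70). A 1005 nt transcript of Ndufs8, an iron-sulfur core subunit, had 111, 113 and 109 nt in KO samples and 98.2, 96.0 and 104 nt in WT samples (limma adjusted p = 0.74). A 599 nt transcript of Ndufs5, which faces the intermembrane space, had 102, 113 and 102 nt in KO samples and 92.6, 88.9 and 97.5 nt in WT samples (limma adjusted p = 0.80). All of these had the groups apart, lower in KO for Ndufa6 and higher in KO for Ndufs8 and Ndufs5. A 722 nt transcript of Ndufs7, annotated as a processed transcript, had 121, 115 and 110.5 nt in KO samples and 121, 131 and 129 nt in WT samples (limma adjusted p = 0.82). Leaving out each library in turn, the adjusted p of these 5 transcripts ran from 0.56 to 0.999.

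Transcripts of the same gene could differ in tail within a library. For the most read and the second most read transcript of a gene, each with at least 10 tail reads in every sample, the tail difference was tested over both genotypes with limma. Of 29 Nduf genes with such a pair, 2 were called, beside 13.8% of 3640 genes over the whole table. In 18 of the 29 the less read transcript had the longer tail on average, against 52.2% over all pairs. The more read transcript was the longer in the other 11. On leaving out single libraries that count ran from 11 of 30 pairs (without KO replicate 3) to 15 of 29 (without KO replicate 1).

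Ndufv2 was one of these calls. Its 1697 nt transcript had 108, 106 and 112 nt in KO samples and 111, 111 and 114 nt in WT samples. The 927 nt transcript, whose annotated end lies 803 bases upstream, had the values given above and was longer in all 6 samples (log2 difference -0.18 ± 0.03, SE; adjusted p = 0.0128). Without WT replicate 2 this call was lost (adjusted p = 0.0510). The gap was 4.71 nt between the means in KO and 26.01 nt in WT, and the change of the gap between genotypes did not pass (limma, log2 0.24 ± 0.07, SE; unadjusted p = 0.00942, adjusted p = 0.72). Over all 3640 genes 0 such changes were called (0%), with 205 at an unadjusted p under 0.05, and 5 of the 29 Nduf genes were among the 205 (background 5.63%).

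Ndufa4, which is now known as a subunit of cytochrome c oxidase, was the other. Its 610 nt transcript had 123, 123 and 124 nt in KO samples and 121, 124 and 125 nt in WT samples. The 409 nt transcript, which ends 80 bases upstream, had 107, 111 and 104 nt in KO samples and 121, 92.7 and 95.9 nt in WT samples. The longer transcript had the longer tail in all 6 samples, with WT replicate 1 close to equal (log2 difference 0.23 ± 0.06, SE; limma adjusted p = 0.0359). This call was lost without KO replicate 1 (adjusted p = 0.0932), 2 (0.0720) or 3 (0.106) and without WT replicate 2 (0.116) or 3 (0.115), and with tails in nt instead of log2 (0.0520). Without WT replicate 1 the log2 difference was 0.30.

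One more pair, of Ndufs7, was singled out after its values were seen and has no test. Its 758 nt transcript of 8 exons had 161, 165 and 156 nt in KO samples and 151, 151 and 163 nt in WT samples, on 29 to 76 reads each. The 983 nt transcript of 9 exons, whose annotated end lies 1 base away, had 119 to 121 nt in KO samples and 119.96 to 121 nt in WT samples. In every sample the mean tail of the 758 nt transcript lay above that of the 983 nt transcript. Reads of transcripts that share exons can be assigned to either, and for such pairs the split of reads is uncertain.

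**Figure D3:**
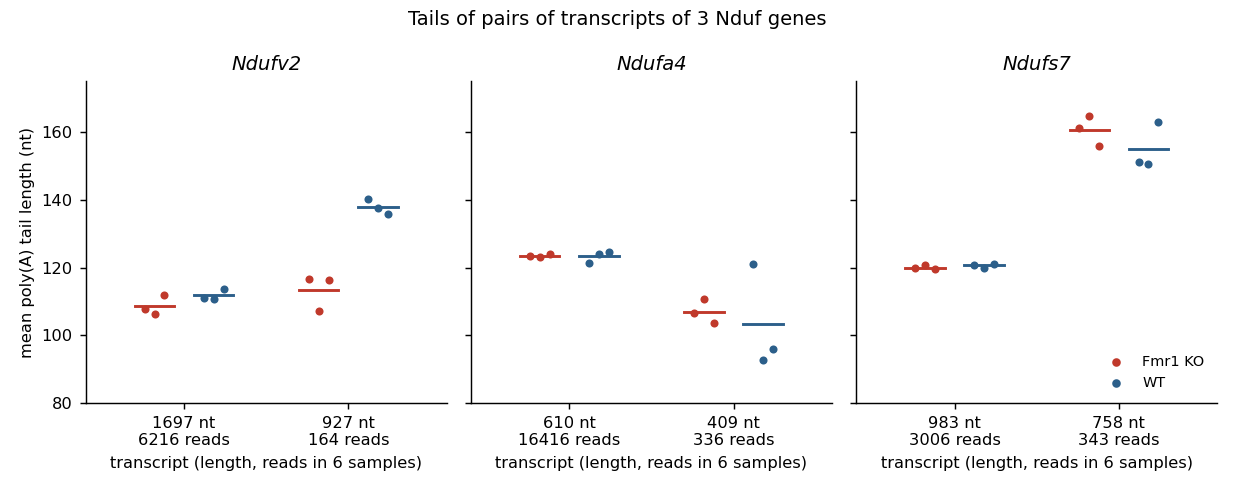
Mean tail length in nt (y axis, starting above 0) of pairs of transcripts of Ndufv2, Ndufa4 and Ndufs7 (x axis, with transcript length and reads), in Fmr1 KO samples (left of each pair) and WT samples. Points are samples and lines are means of 3. The 927 nt transcript of Ndufv2 lies at 107 to 117 nt in KO samples and at 136 to 140.2 nt in WT samples.

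Abundance of most complex I genes was slightly higher in KO cortex. Of 48 Nduf gene identifiers tested with edgeR, 3 were called and all 3 were higher in KO, where 0.574% of 12543 genes were called higher and 1.03% in either direction. These were the accessory subunits Ndufb9, Ndufb7 and Ndufs4. The mean was higher in KO for 42 of the 48, against 49.4% of all genes, with a median log2 change of 0.09 (all genes -0.00283). Groups were apart and higher in KO for 14 (background 9.12%) and apart and lower for 1, Ndufaf6 (background 8.16%). On the deposited RPM scale 9 were apart and higher (background 5.72%) and 3 apart and lower, namely Ndufaf6, Ndufs8 and Ndufb5 (background 13.3%). Summed over the set, abundance was 10644, 10496 and 10629 CPM in KO samples and 9701, 9667 and 10037 CPM in WT samples, with every KO sum above every WT sum. The sums over all 12543 genes were 1038210, 1008780 and 1005500 CPM in KO samples and 979890, 983158 and 985687 CPM in WT samples. These too lay higher in every KO sample after TMM scaling, and the part of the scaling in the Nduf sums was not tested. In bulk cortex, fewer cells of a type and less RNA per cell cannot be told apart. The summed excitatory neuron markers and Sst were also higher in KO and Ttr was lower, as given above, and their part in these differences was not tested.

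Ndufb9 (ENSMUSG00000022354, chromosome 15, 58933756 to 58939488, mm10), a membrane arm subunit, was the most abundant of the accessory genes. It had 532, 546 and 530.0 CPM in KO samples, against 435, 415 and 472 CPM in WT samples. The groups did not overlap (log2 0.28 ± 0.06, SE; edgeR adjusted p = 0.0140). Its only transcript with reads was also the 1 Nduf transcript called at transcript level (adjusted p = 0.0349, background 0.256%), while its tail had a log2 change of -0.01 ± 0.04 (SE; limma adjusted p = 0.99).

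Ndufb7 (ENSMUSG00000033938, chromosome 8, 83566671 to 83571626), of the membrane arm, had 126, 131 and 124 CPM in KO samples, against 106, 97.5 and 101 CPM in WT samples (log2 0.32 ± 0.07, SE; edgeR adjusted p = 0.0261). Ndufs4 (ENSMUSG00000021764, chromosome 13, 114287795 to 114388258), a matrix arm subunit whose loss causes Leigh syndrome in humans, had 179, 172 and 184 CPM in KO samples, against 147, 144 and 151 CPM in WT samples (log2 0.28 ± 0.07, SE; edgeR adjusted p = 0.0471). The KO samples of both genes lay above all WT samples. Ndufa4, the most abundant gene with the name, had 923, 889 and 935 CPM in KO samples and 783, 789 and 826 CPM in WT samples, and did not pass (log2 0.20 ± 0.05, SE; edgeR adjusted p = 0.0630).

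These calls were near the threshold. The transcript call of Ndufb9 was lost without KO replicate 1 (adjusted p = 0.0923), 2 (0.270) or 3 (0.146) and without WT replicate 2 (0.222). At gene level Ndufb9 was lost without KO replicate 2 (adjusted p = 0.110) or 3 (0.0503) and without WT replicate 2 (0.0789). Ndufb7 was lost without KO replicate 1 (0.102), 2 (0.156) or 3 (0.0871) and without WT replicate 2 (0.146) or 3 (0.0653), and Ndufs4 without any 1 of the 6 libraries (0.0548 to 0.213). All 3 calls were lost with scaling by library size only and with limma on log2(RPM + 1), where the log2 change of Ndufs4 was 0.15, and DESeq2 called Ndufb9 and Ndufa4. With edgeR on the reads recovered from the deposited RPM, an alternative added with the data in view, 101 genes were called over the whole table, Ndufb9 and Ndufb7 among them. Ndufs4 was not called there (log2 0.19 ± 0.06, SE; adjusted p = 0.158). By library size only, 34 of 48 genes were higher in KO, against 37.9% of all genes. That scaling turned the calls over all genes to 22 higher and 71 lower, where TMM gave 72 and 57 and DESeq2 gave 43 and 19.

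The core subunits had small differences. Of 8 core identifiers (both Ndufs3 records counted), 7 were higher in KO and 0 were called, with 1 at an unadjusted p under 0.05 in edgeR (background 12.9%) and 0 called by DESeq2. Ndufv2 had 352, 304 and 327 CPM in KO samples and 315, 319.5 and 297 CPM in WT samples (edgeR adjusted p = 0.65). The groups overlapped. Of 30 accessory subunits, 28 were higher in KO, among them Ndufa5 (log2 0.23 ± 0.07, SE; edgeR adjusted p = 0.11) and Ndufa10 (log2 0.24 ± 0.07, SE; adjusted p = 0.12), neither of which passed.

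Assembly factors were the least abundant class. Their WT means ran from 12.6 to 70.7 CPM, against 100.3 to 441 CPM for the subunits. No assembly factor was called (edgeR, 1 at an unadjusted p under 0.05, and 0 called by DESeq2). Ndufaf3 had 74.9, 78.0 and 67.8 CPM in KO samples and 66.3, 75.6 and 70.1 CPM in WT samples. Ndufaf7 had 39.2, 40.5 and 34.3 CPM in KO samples and 32.5, 35.2 and 26.3 CPM in WT samples. The groups overlapped for both. Ndufaf5 and Ndufaf6 were the only assembly factors with a lower mean in KO. Ndufaf6 had 10.9, 9.70 and 9.68 CPM in KO samples and 11.96, 13.9 and 11.9 CPM in WT samples, with the groups apart (log2 -0.31 ± 0.19, SE; edgeR adjusted p = 0.53). The others, Ndufaf1, Ndufaf2, Ndufaf4 and Ndufaf8, had log2 changes of 0.07 to 0.23 with standard errors of 0.12 to 0.15.

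**Figure D4:**
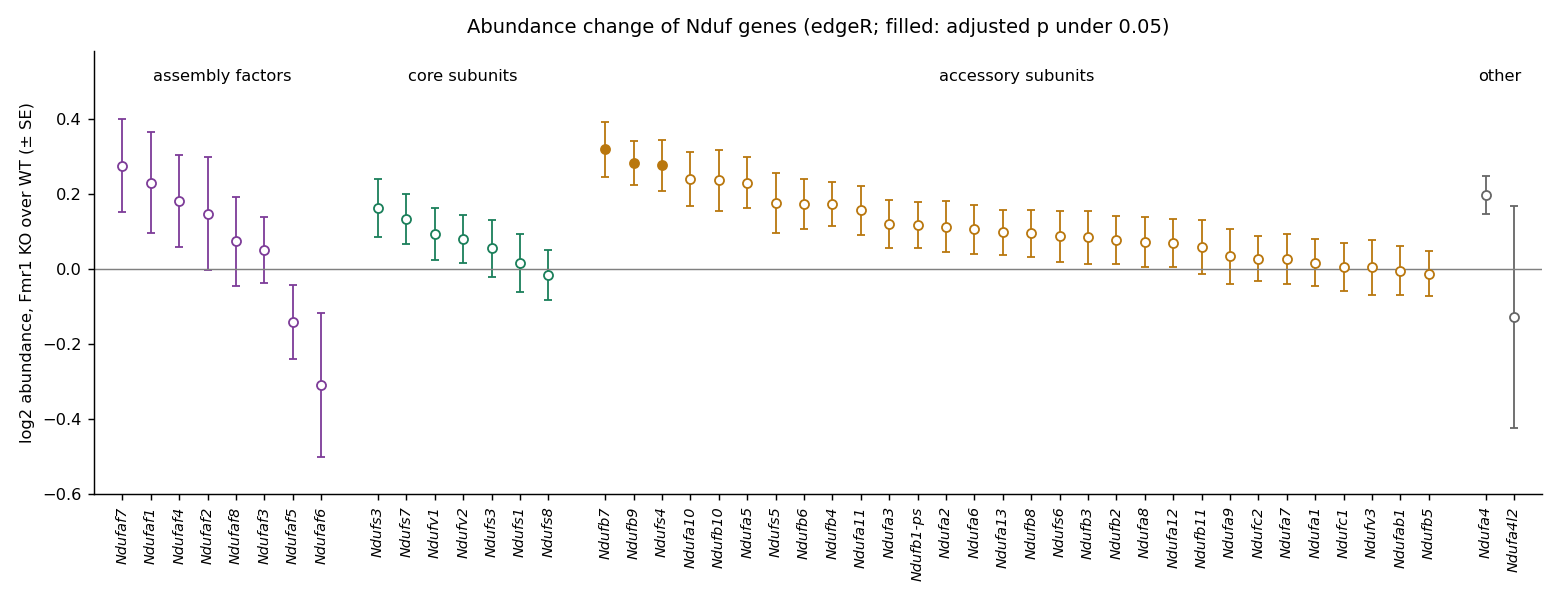
Log2 change in abundance, Fmr1 KO over WT, of 47 of the 48 Nduf gene identifiers (x axis, by class), with standard errors from edgeR. Filled points passed an adjusted p of 0.05: Ndufb7, Ndufb9 and Ndufs4. Of the 47 points, 41 lie above 0.

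Abundance differences between KO and WT ran with transcript length over the whole table. Over all genes, the median log2 change was 0.10 where the most read transcript was at most 700 nt long, 0.06 from there to 1200 nt, 0.04 to 2000 nt, -0.0003 to 4000 nt and -0.05 above. Of the 48 Nduf identifiers, 15 were in the shortest class and 18 in the next. All 15 of the shortest were higher in KO, where 69.3% of genes of that class were, with a median log2 change of 0.11. Once a trend on transcript length was fitted in each sample and used as an offset, 33 of 48 were higher (all genes 50.1%) and 0 were called, with 6 at an unadjusted p under 0.05 (background 11.6%). Under that offset the adjusted p was 0.0840 for Ndufb9, 0.166 for Ndufb7 and 0.102 for Ndufs4. The offset was added with the data in view.

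**Figure D5:**
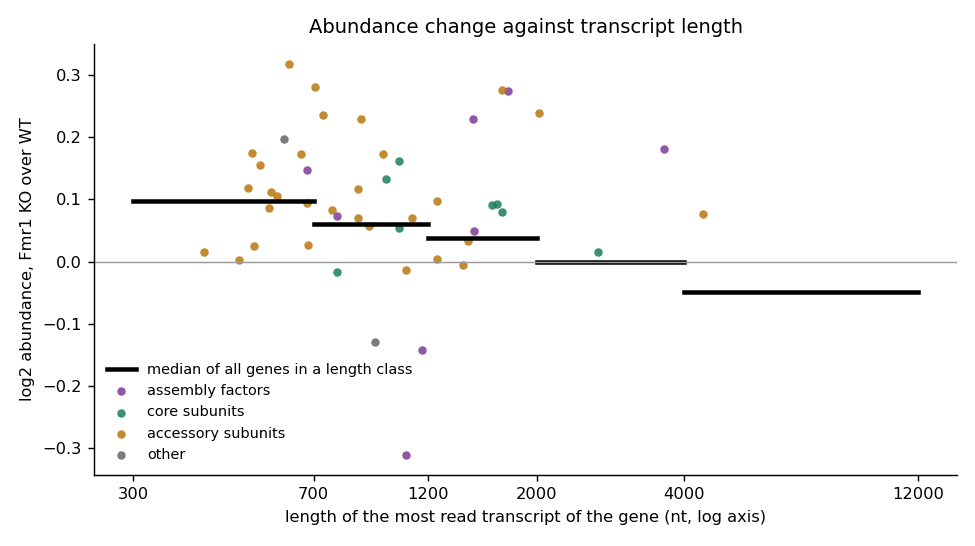
Log2 change in abundance, Fmr1 KO over WT (y axis), against the length of the most read transcript in nt (log axis) for the 48 Nduf gene identifiers. Black lines are medians over all genes in a length class, with the outer classes drawn to the edges. The medians of all genes fall from 0.10 at up to 700 nt to -0.05 above 4000 nt.

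The other genes of the pathway were set beside these. Of the 7 mitochondrially encoded core subunits (mt-Nd1 to mt-Nd6 and mt-Nd4l), 3 were higher in KO and 0 were called (edgeR, 1 at an unadjusted p under 0.05, and 0 by DESeq2). Their sum was 44388, 40774 and 38479 CPM in KO samples and 41799, 43846 and 40444 CPM in WT samples, and the groups overlapped. Their median tail was 67.8 ± 0.74 nt in KO samples and 66.3 ± 0.28 nt in WT samples (SD, n = 3 each). All 7 had a longer mean tail in KO, 5 of them with the groups apart, where 41.2% of all transcripts were longer in KO and 3.41% apart and longer, and 0 passed (limma adjusted p from 0.87 to 0.95, with 0 at an unadjusted p under 0.05). Of 10 assembly factors not named Ndufaf, such as Ecsit and Acad9, which act with Ndufaf1, 7 were higher in abundance and 0 were called (edgeR, 0 at an unadjusted p under 0.05, and 0 by DESeq2). Their median tail was 130.5 ± 5.80 nt in KO samples and 136 ± 7.23 nt in WT samples. Of 51 nuclear subunits of complexes II to V, 44 were higher in KO (49.4% of all genes) and 3 were called higher (background 0.574%), namely Cox4i1, Cox6a1 and Cox6c of cytochrome c oxidase (median log2 change of the 51 genes 0.08). DESeq2 also called 3 of the 51 and limma on log2(RPM + 1) called 0.

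Signals were counted at the annotated ends, on the transcript strand only. Among 89 tested Nduf transcripts with a sequence, 57.3% held AATAAA in the last 40 bases, 15.7% held ATTAAA without AATAAA and 26.97% neither. Over 15851 tested transcripts these shares were 65.5%, 14.5% and 20.04%. The representative transcripts with AATAAA, 27 of 46, had a median tail of 105 nt in KO and 106 nt in WT, and the 12 with neither signal 111 nt in KO and 109.7 nt in WT. Over the representative transcripts of all genes the order was the reverse. Those with AATAAA had a median of 143 nt in KO and 145 nt in WT, and those with neither 138 nt in KO and 139 nt in WT. TTTTAT or TTTTAAT, forms of the element that CPEB1 binds, lay in the last 100 bases of 6 of the 89 (6.74%), against 18.03% of 15839 transcripts. The 6 were transcripts of Ndufa2, Ndufs4, Ndufc2, Ndufaf3, Ndufaf6 and Ndufaf8. Neither Ndufv2 transcript holds these letters in that window. A match describes letters in a window and is not a bound site.

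The authors' deposited table holds a DESeq2 log2 fold change per transcript, whose direction is not stated. In the authors' deposited table the DESeq2 value was -0.27 ± 0.07 (SE; p = 0.000149) for Ndufb9, -0.37 ± 0.11 (p = 0.00122) for Ndufb7 and -0.20 ± 0.10 (p = 0.0410) for the main transcript of Ndufs4. For the same transcripts edgeR on tail reads gave log2 changes, KO over WT, of 0.28, 0.33 and 0.28. The deposited signs were thus opposite to KO over WT there, and a negative value is not read here as lower in KO. A negative value stood in the authors' deposited table for 68 of the 90 Nduf transcripts, against 8861 of 16157 tested transcripts.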

How the data were processed

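Direct RNA libraries of poly(A) RNA from mouse cortex, 3 Fmr1 KO and 3 WT, were grouped by their titles. Per the file headers, the authors deposited for each transcript a mean poly(A) tail length in nt, the count of reads behind it and an abundance in RPM (reads per 1000000). The deposited table also holds the authors' log2 fold change, with a standard error and test score, and their unadjusted p-value. Neither the tail estimator nor the direction of the authors' log2 values is given in the sources used here. Build mm10, DESeq2, Salmon 1.5.2, minimap2 2.17 and SAMtools 1.9 are named, without roles, per the submitters' processing notes. Deposited RPM values came out as whole reads, within 0.01, in 100% of cases (99.9% for WT replicate 1).

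For tails, limma 3.58.1 (empirical Bayes, variance trend) was fitted to log2(mean nt + 1) of 16168 transcripts, each with 10 or more tail reads in every sample. Tail reads per gene or transcript were tested with edgeR 4.0.16 (TMM, filterByExpr, quasi-likelihood). Adjusted p-values are Benjamini-Hochberg over each whole table, with a threshold of 0.05. The limma fits of tails and of pairs over both genotypes, and edgeR per gene and per transcript, were tested on simulated data. The genotype term of the pair fit, DESeq2, limma on RPM and the length offset were not. Of the 240 Nduf transcripts, 234 matched GENCODE release 21 (mm10) with the same length. Ndufb1-ps counts as the accessory subunit Ndufb1. A mean tail over few reads, as for assembly factors, is less certain than one over many, and intervals between samples cover the spread of these libraries only.

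The members, the lists and the alternatives were chosen with earlier results of these data known. Named genes were those with most reads in each class, all assembly factors, the 4 longest and the 4 shortest WT tails, members past a test or, for tails, the 5 with the smallest p, and called pairs of transcripts; 1 such gene is not reported here and is left out of the plots by gene. The labels do not say whether samples with the same replicate number were paired, so the main fits used no pairing.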

Additional observations from a re-analysis of the deposited data

How the results depend on the processing

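The gap in tail length between assembly factors and subunits kept its direction throughout, at 11.8 nt with at least 30 reads, 14.3 nt with read-weighted means, 17.1 nt with means over genes and 12.6 to 14.7 nt on leaving out single libraries. Calls of tails between genotypes stayed at 0 under all alternatives run (30 or 3 reads, nt without log, a pseudocount of 10, centring, read weights, the block and each library left out). Genes called for abundance, 129 in all with 3 of the Nduf set, numbered 62 with DESeq2, 249 without a filter, 40 with limma on log2(RPM + 1), 33 with log2(RPM + 0.1) and 57 to 206 without single libraries. Nduf genes called numbered 0 with library size only, 0 with limma at either pseudocount, 0 with the length trend as offset and 0 to 4 without single libraries. Transcripts called, 103 with 1 of the Nduf set, numbered 28 with DESeq2, 180 (Nduf 2) without a filter and 44 to 163 (Nduf 0 to 2) without single libraries. Pairs of transcripts called, 501 with 2 of the Nduf set, numbered 299 (Nduf 1) at 30 reads and 342 to 479 (Nduf 0 to 4) without single libraries, and 1 Nduf pair was called with tails in nt. The causes were not tested. With the replicate number as a block, 92 genes were called over the whole table, 1 of them Nduf. In that setting 171 transcripts were called for abundance, 2 of them Nduf, and tails still 0. Same-numbered samples correlated in their deviations by 0.02, 0.0037 and 0.01 for tails and 0.02, -0.07 and 0.05 for abundance. Samples with unlike numbers reached similar sizes for abundance, 0.07 for KO replicate 2 with WT replicate 1 and -0.097 for KO replicate 3 with WT replicate 1. The labels do not state a pairing, and deviations within groups of 3 cannot decide whether samples were paired. Depth limits the assembly factors and minor transcripts most.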

Other observations

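Several second transcripts of complex I genes carry an annotation for nonsense-mediated decay, the pathway that removes mRNAs with an early stop codon. Such transcripts made up 7 of the 29 second most read ones, and 3 of the 7 had a longer tail than the most read transcript of their gene on average, against 15 of the 22 with another annotation. For Ndufs4 the transcript so annotated had a mean tail of 111 nt in KO and 103 nt in WT samples, and the most read one 121 nt in KO and 119 nt in WT samples, a difference that did not pass (limma adjusted p = 0.10). For Ndufs6 the annotated transcript had 107 nt in KO and 101 nt in WT samples, and the most read one 95.6 nt in KO and 97.5 nt in WT samples, and this did not pass either (limma adjusted p = 0.0966).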
